A study of Mus musculus with 8 samples.

Results

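The genes examined here are the hypoxia-inducible factor (HIF) subunits, the enzymes and the ligase that control them, and a set of their known target genes. They were chosen by symbol from a fixed list of 34 genes, and all 34 were found among the 24848 genes of the tables (Ero1l is the older symbol of Ero1a). This list, and the lists of related genes and markers used below, were drawn up with earlier results of these data known. All 34 also passed the count filter, which left 13569 genes for testing. The RNA of 8 libraries came from tibialis anterior, a muscle at the front of the lower leg. The mice were male and Leprdb/db, a leptin receptor mutant that becomes obese and diabetic. Every mouse had surgery that made a hind limb ischemic, and the muscle was collected 28 days later. The 4 placebo libraries came from mice on a control chow without drug. The other 4 came from mice on the same regimen with 75 ppm praliciguat, a stimulator of soluble guanylate cyclase, which nitric oxide activates to produce cGMP. Either diet was given for 31 days, starting 3 days before surgery. All groups thus share the genotype and the ischemia, and muscle with normal blood flow is not analysed here. The libraries therefore compare drug with no drug in ischemic muscle and do not measure a response to ischemia itself.

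HIF is a transcription factor made of an oxygen-regulated alpha subunit and a constant partner, ARNT. In well-oxygenated cells prolyl hydroxylases (the EGLN or PHD enzymes) mark the alpha subunit, the VHL ubiquitin ligase recognises the mark, and the protein is destroyed, while HIF1AN adds a further mark that blocks its activity. When oxygen falls these enzymes slow, the alpha subunit accumulates, and genes for glucose uptake, glycolysis, mitochondrial removal, collagen modification and vessel growth are switched on. In skeletal muscle the pathway is known for shifting fuel use from fat to glucose. HIF activity is set mainly at the level of protein, which RNA levels do not measure.

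Total expected counts ranged from 21099764 to 31896205 per library, and 1 count was worth 0.0292 to 0.0445 CPM (counts scaled to library size by TMM). Fast fibre markers summed to 128913 to 188668 CPM, as in fast skeletal muscle; which muscle it was cannot be read from them. Praliciguat replicate 3 stood apart in macrophage and leukocyte markers, with a summed level of 534 CPM against 47.8 to 169 CPM in the other 7 libraries, and in fibroblast markers, with 4885 CPM against 661 to 2319 CPM. All 9 slow fibre markers had a fold change below 0 (summed level 875 to 2049 CPM in placebo and 310.4 to 516 CPM with praliciguat). Numbers in the titles of the samples form a lower run (replicates 1 and 2 of each group) and an upper run (replicates 3 and 4 of each). The labels do not say what the runs stand for. Since they do not state that libraries came from different mice, p-values here cover library-to-library spread, which may be technical.

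HIF binds DNA at a short core in which an A or a G precedes CGTG. The 250 bases before the transcription start were read for ACGTG and GCGTG on both strands (CACGT and CACGC on the printed strand), with overlapping matches counted separately. RefSeq windows on GRCm38.p6, the assembly of mm10, were found for 28 of the 34 genes. No window was matched for Epas1, Slc2a3, Bnip3l, Ndrg1, Bhlhe40 and Kdm4b. A core was present in 25 of the 28 (89.3%), and 2 or more in 18 (64.3%). Of the 10550 tested genes with a window, 60.4% held a core and 30.9% held 2 or more. The members had a median GC content of 63.0% in this window against 60.0% in those tested genes. HIF is known to bind near many of these genes, so this count describes the list. The windows that follow are those of the 5 genes of lowest p against placebo that hold a core, limited to bases outside the RefSeq gene span (151 bases for P4ha1, 227 for Arnt), with cores in capitals. The counts above used all 250 bases and, for a gene with several windows, the window with the most matches. P4ha1 had 3 matches, and the one 16 bases before the start falls in the part not printed. P4ha1 (plus strand, chr10:59323046-59323196) and P4ha2 (plus strand, chr11:54100674-54100923) encode collagen prolyl hydroxylases. Egln3 (minus strand, chr12:54203875-54204124) encodes a HIF prolyl hydroxylase, Arnt (plus strand, chr3:95434140-95434366) the HIF partner, and Bnip3 (minus strand, chr7:138909507-138909756) a receptor for mitochondrial removal.
P4ha1: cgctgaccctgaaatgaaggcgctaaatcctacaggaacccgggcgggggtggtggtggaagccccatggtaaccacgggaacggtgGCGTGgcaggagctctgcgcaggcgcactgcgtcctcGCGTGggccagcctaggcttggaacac
Egln3: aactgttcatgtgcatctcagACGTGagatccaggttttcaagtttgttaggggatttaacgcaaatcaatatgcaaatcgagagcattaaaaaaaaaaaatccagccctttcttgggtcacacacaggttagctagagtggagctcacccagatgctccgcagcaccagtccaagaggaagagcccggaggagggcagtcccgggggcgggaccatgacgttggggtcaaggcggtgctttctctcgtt
P4ha2: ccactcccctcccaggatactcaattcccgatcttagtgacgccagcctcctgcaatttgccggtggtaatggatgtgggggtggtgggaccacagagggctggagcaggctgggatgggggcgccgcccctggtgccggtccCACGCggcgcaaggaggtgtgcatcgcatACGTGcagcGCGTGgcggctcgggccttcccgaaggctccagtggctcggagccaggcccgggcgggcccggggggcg
Arnt: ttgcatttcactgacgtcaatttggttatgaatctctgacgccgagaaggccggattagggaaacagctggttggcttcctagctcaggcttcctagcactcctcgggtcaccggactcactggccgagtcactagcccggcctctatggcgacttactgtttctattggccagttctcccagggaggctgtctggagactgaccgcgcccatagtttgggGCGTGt
Bnip3: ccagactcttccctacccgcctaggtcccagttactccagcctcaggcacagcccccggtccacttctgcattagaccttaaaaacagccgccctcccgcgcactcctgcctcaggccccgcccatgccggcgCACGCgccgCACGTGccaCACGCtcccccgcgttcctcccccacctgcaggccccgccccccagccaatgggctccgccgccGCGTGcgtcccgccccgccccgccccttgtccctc
The window of Bnip3 held 5 matches within 117 bases of the start, among them a palindrome read on both strands. That of Fam162a, not shown, held the most of the 28, with 6. Mif, the gene of lowest p in the list, had no core in its window, and neither had Vhl or Hif1an. A match is a description of letters and was not tested as a binding site.

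Transcript levels per length spanned a wide range (TPM, a length-corrected share of all transcripts). Ddit4, an inhibitor of growth signalling through mTOR, was the most abundant, with 270.0 ± 22.7 TPM in placebo and 205 ± 66.4 TPM with praliciguat (SD, n = 4 each). Egln1 followed with 216 ± 26.4 and 229 ± 59.0 TPM, and Bnip3 with 179 and 149 TPM (ranges 151.9 to 203.9 and 132 to 160.3). At the other end Hif3a had 1.35 ± 0.423 and 1.41 ± 0.648 TPM, and Car9, the carbonic anhydrase that marks hypoxic cells, 1.55 ± 0.394 and 1.59 ± 0.211 TPM (SD, n = 4). The other sensors lay between, with Egln2 at 84.8 and 82.4 TPM, Egln3 at 80.9 and 42.4 TPM and Hif1an at 50.5 and 51.8 TPM in placebo and praliciguat, and Vhl was lower at 4.87 and 6.57 TPM.

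**Figure D1:**
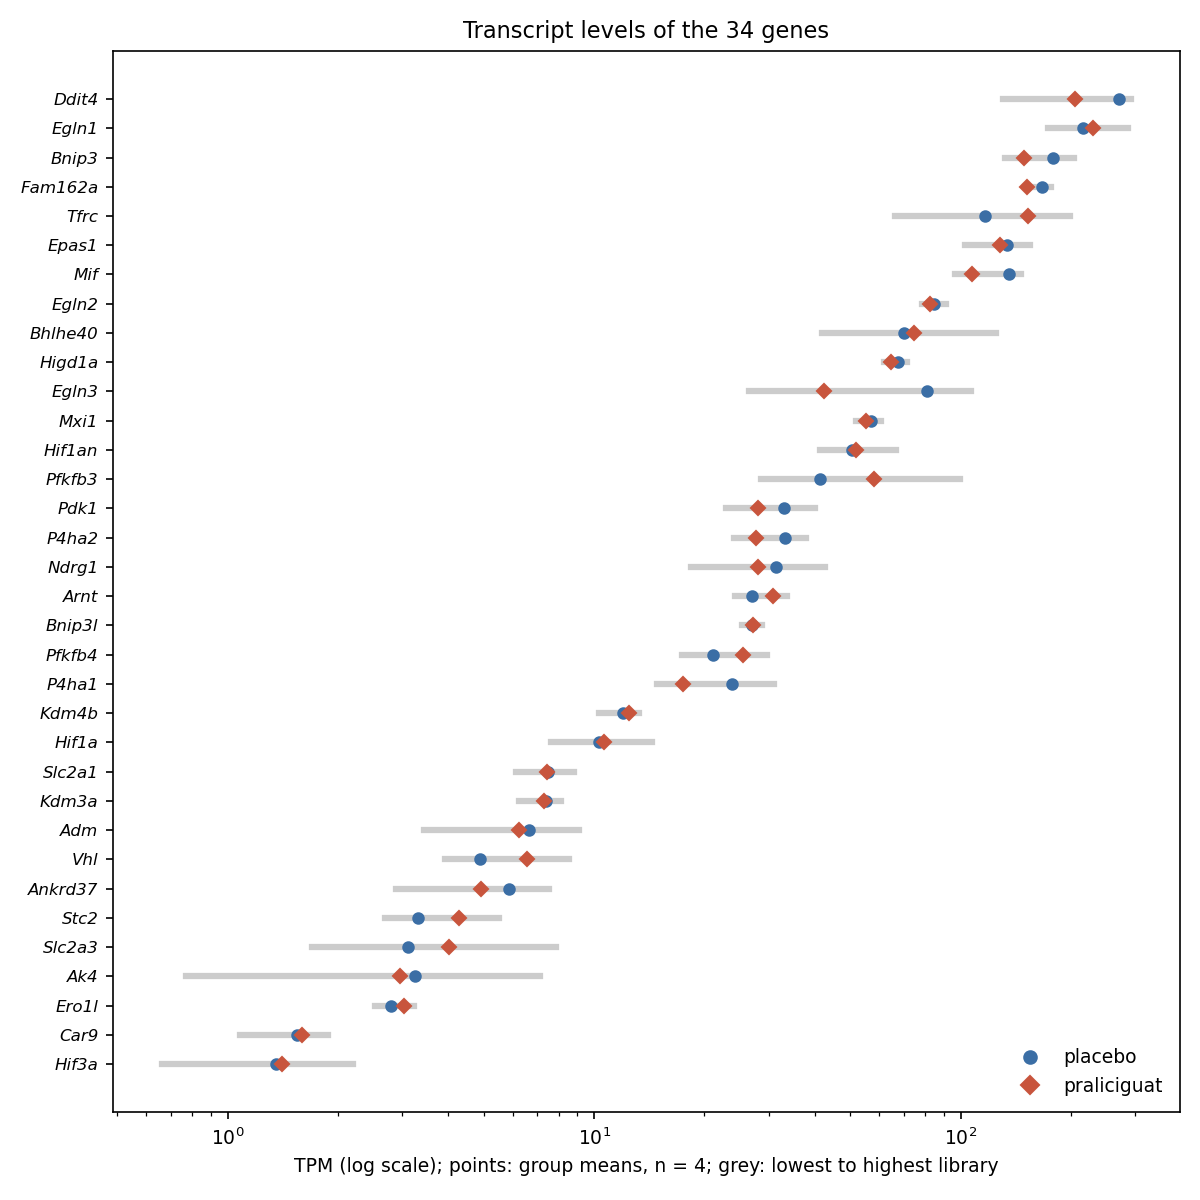
Level of each of the 34 genes in TPM on a log axis, ordered by the mean over 8 libraries, with group means as points and the lowest to highest library in grey. Ddit4, Egln1 and Bnip3 are at the top, and Car9 and Hif3a are at the bottom.

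Against placebo, none of the 34 genes was called changed with praliciguat by the test over all genes. The edgeR quasi-likelihood test called 0 of 34 at an adjusted p under 0.05, where 0% of all tested genes were called, with a smallest adjusted p in the list of 0.681 (Mif). A gene that was not called may still differ. Tnnt1, a slow fibre marker at a log2 fold change of -2.99 without overlap between groups, was not called either (edgeR adjusted p = 0.078). At an unadjusted p under 0.05 there were 3 members (Mif, P4ha1 and Egln3, all with a fold change below 0), against 5.73% of all genes. DESeq2 called 0 of 34 too, where it called 0.958% of all genes, and at an unadjusted p under 0.05 it had 4 members, against 6.35% of all genes. limma-voom called 0 members and 0% of all genes, where 6.01% were at an unadjusted p under 0.05. In 0 of the 34 genes did the groups separate without overlap, against 3.86% of all genes tested (2.54% lower and 1.32% higher with praliciguat). The median log2 fold change of the members was 0.03, against 0.02 over all tested genes, and 14 of 34 (41.2%) lay below 0, against 44.8% of all genes.

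**Figure D2:**
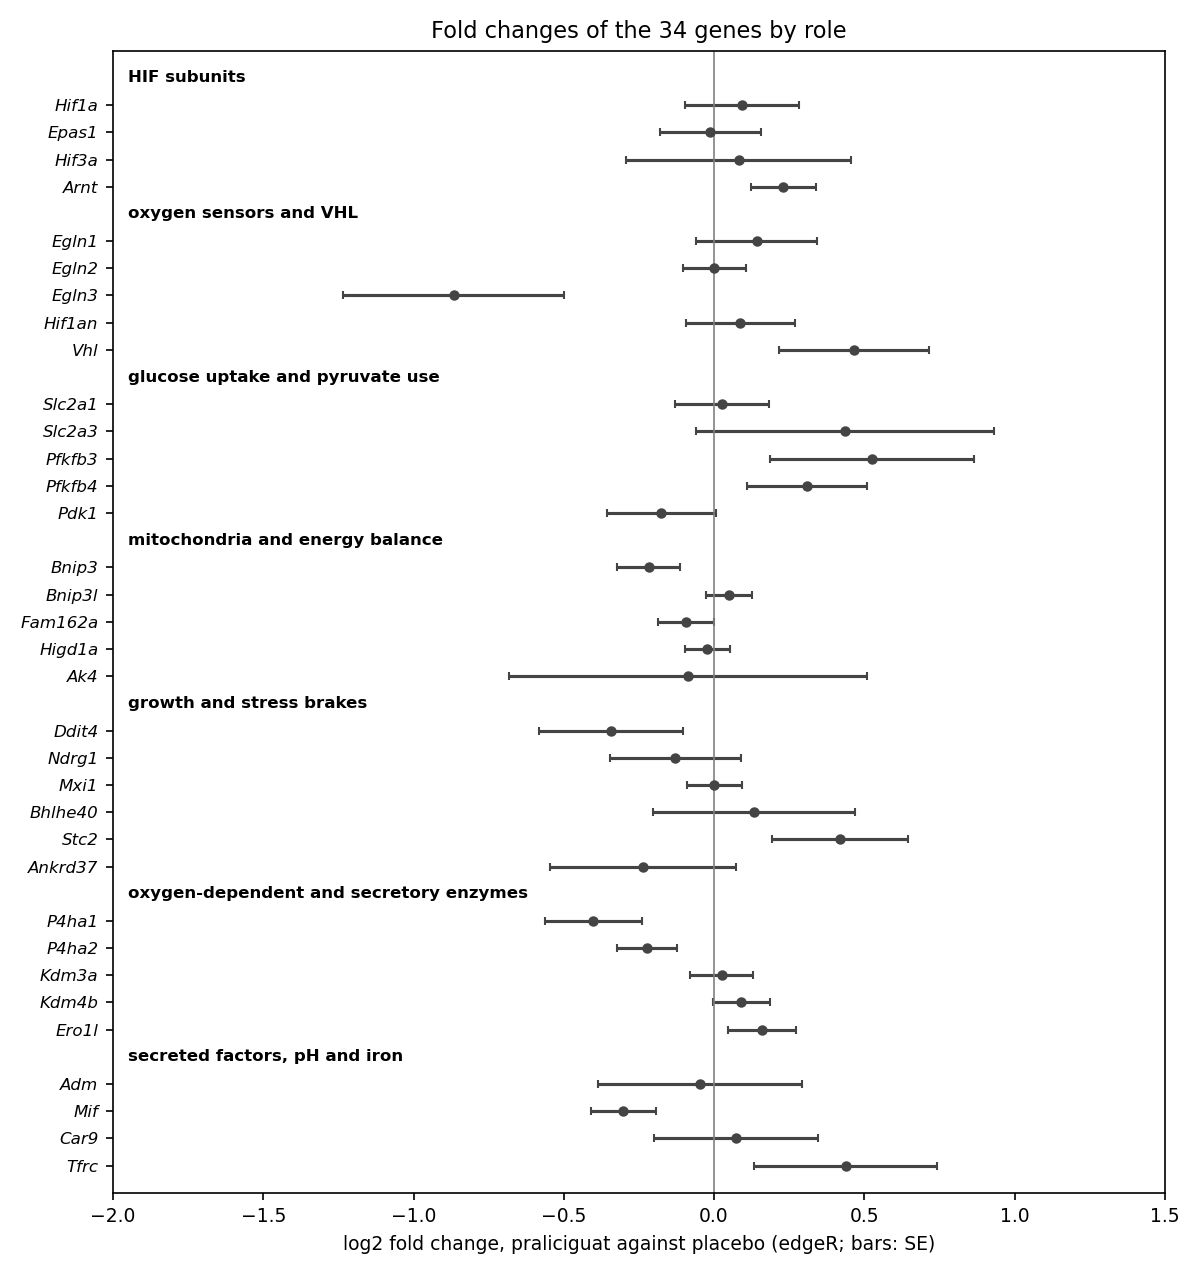
Log2 fold change of praliciguat against placebo for the 34 genes, grouped by role, from edgeR on 4 against 4 libraries; bars are the standard error. Egln3 lies farthest from 0 at -0.87, and Pfkfb3 is the highest at 0.52.

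Among the HIF subunits, Epas1 (HIF-2 alpha, the form abundant in vessel cells) provided most of the alpha subunit transcript. Per length it took 92.0 ± 0.981% of the summed TPM of Hif1a, Epas1 and Hif3a in placebo and 91.1 ± 3.25% with praliciguat (SD, n = 4; two-sided exact permutation test, p = 0.657, or 0.8 adjusted for 6 shares). Epas1 was at 402, 359.6, 395 and 384 CPM in placebo replicates 1 to 4 and at 451, 477, 297 and 303 CPM in praliciguat replicates 1 to 4. The placebo libraries lay close together, and the praliciguat libraries fell on both sides of them, giving a log2 fold change of -0.01 ± 0.17 SE. The 10 endothelial markers all had a fold change below 0, against 44.8% of all genes, with a median of -0.33. Of these, 2 were lower without overlap between groups, against 2.54% of all genes. Their summed level was 693 to 862 CPM in placebo and 485 to 708 CPM with praliciguat, and its part in the Epas1 values was not tested. In whole muscle, fewer cells of a type and less RNA per cell cannot be told apart.

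Hif1a, the alpha subunit found in most cells, was at 21.02, 20.04, 31.2 and 28.5 CPM in placebo and at 24.0, 21.1, 34.5 and 27.8 CPM with praliciguat (0.09 ± 0.19 SE). Its level followed the run of title numbers: all 4 libraries of the upper run exceeded all 4 of the lower run, in both groups. Of the members Hif1a and Bhlhe40, a transcriptional repressor of the circadian clock, showed this order, against 3.07% of all genes. Slc2a1, Fam162a and Car9 had the reverse order, against 3.35% of all genes. Hif1a overlaps exons of other GENCODE genes on both strands, which are not among the counted genes under those names. Whether reads from them were counted as Hif1a was not tested. Of the 34 genes 11 have such an exon overlap on the opposite strand. RSEM's mean transcript length for Hif1a, which moves with the mix of its 3 transcripts, lay between 4534 and 4680 bases in the 8 libraries.

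Hif3a, an alpha subunit with forms that restrain the others, was the lowest of the list per length (TPM). Its CPM, which are not corrected for length, were 6.77, 6.44, 3.43 and 3.81 in placebo and 8.67, 4.78, 5.66 and 2.52 with praliciguat, with the placebo libraries inside the praliciguat range (0.08 ± 0.37 SE). The genes outside the list with the most similar pattern over the 8 libraries were Rpain, Trim44, Cd2ap, Rpl29 and Ubp1 (Pearson r 0.947 to 0.978 on log2 CPM, a description). They were picked for the highest r among all tested genes outside the list, and what picking alone would give was not tested. Arnt had 56.6, 59.8, 64.5 and 69.8 CPM in placebo and 76.9, 75.3, 62.1 and 80.0 CPM with praliciguat. Of the praliciguat libraries 3 lay above every placebo library and replicate 3 lay among them, with a log2 fold change of 0.23 ± 0.11 SE (edgeR adjusted p = 0.899).

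Arnt2, a paralog of Arnt found mainly in neurons and outside the list of 34, had the lowest p of the other HIF pathway genes. It was at 9.09, 6.41, 4.60 and 7.94 CPM in placebo and at 2.20, 0.777, 1.603 and 2.24 CPM with praliciguat. The groups did not overlap, and the log2 fold change was -2.04 ± 0.34 SE (edgeR adjusted p = 0.122). DESeq2 called it lower (adjusted p = 5.21e-06). Per length it was scarce beside Arnt, with 2.13 ± 0.589 and 0.51 ± 0.205 TPM against 27.0 ± 3.21 and 30.7 ± 2.45 TPM for Arnt (SD, n = 4). The slow fibre markers moved the same way, and their part in the Arnt2 values was not tested.

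**Figure D3:**
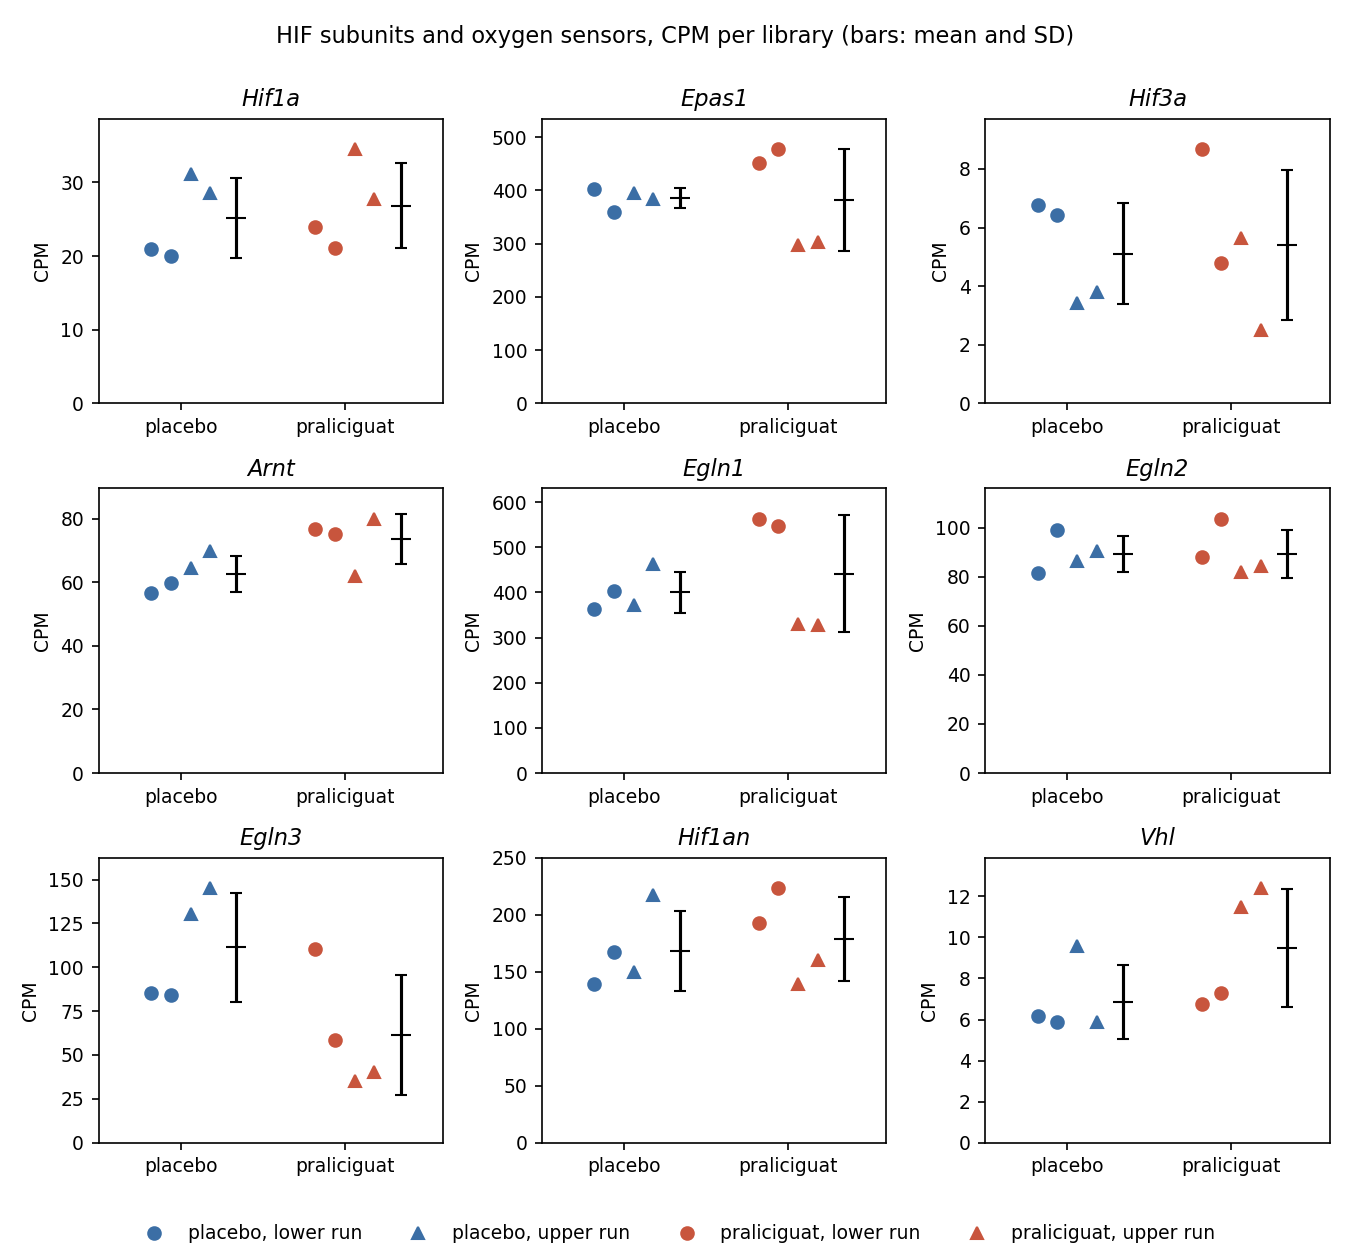
CPM of the 4 HIF subunits, 4 oxygen sensors and Vhl in each library, with circles for the lower and triangles for the upper run of title numbers; black bars are the mean and SD of 4 libraries. For Epas1 and Egln1 the circles of praliciguat lie above all placebo libraries and the triangles below them.

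Of the 4 oxygen sensors and Vhl, 4 genes had a fold change above 0 and Egln3 below, with 0 called. Egln3, the prolyl hydroxylase that is itself a strong HIF target, had the largest fold change of the list. It was at 85.3, 84.5, 131 and 145 CPM in placebo and at 110.2, 58.7, 35.2 and 40.6 CPM with praliciguat. In 3 of the 4 praliciguat libraries it lay below every placebo library, and replicate 1 lay among them. The log2 fold change was -0.87 ± 0.37 SE (edgeR adjusted p = 0.837; DESeq2 adjusted p = 0.404), and without praliciguat replicate 1 it was -1.31. Within the lower run of title numbers the difference was -0.08 and within the upper run -1.85.

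Egln1, the main prolyl hydroxylase of most tissues, was at 363, 403, 373 and 463 CPM in placebo and at 563, 547, 329.6 and 328 CPM with praliciguat. Both praliciguat libraries of the lower run stood above all placebo libraries and both of the upper run below them (log2 fold change 0.14 ± 0.20 SE). It was 0.0054 without praliciguat replicate 1, 0.0247 without praliciguat replicate 2, and 0.22 to 0.26 without placebo replicate 4 or praliciguat replicate 3 or 4. Egln2, the third enzyme, was even across libraries, with 81.5, 98.8, 86.5 and 90.5 CPM in placebo and 88.1, 104, 81.7 and 84.2 CPM with praliciguat (0.00 ± 0.10 SE, below 0 under upper quartile scaling). Its exons overlap Cyp2t4 on the opposite strand.

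The make-up of the prolyl hydroxylase transcripts was compared within each library, which is free of scaling between libraries. Egln3 made up 18.3, 16.4, 25.1 and 23.8% of the summed TPM of the 3 enzymes in placebo and 17.0, 9.74, 9.07 and 10.2% with praliciguat. The means were 20.9 ± 4.19% and 11.5 ± 3.70% (SD, n = 4), and praliciguat replicate 1 overlapped the placebo range (two-sided exact permutation test, p = 0.0571, or 0.257 adjusted for 6 shares; the smallest p that 4 against 4 libraries allow is 0.0286). The Egln1 share, looked at after its values were seen and so given without a test, was 58.1, 58.3, 53.3 and 56.8% in placebo and 64.9, 67.7, 63.4 and 61.7% with praliciguat. For Egln1 the 4 praliciguat shares all lay above the 4 placebo shares, although its CPM did not separate the groups. The shares of the 3 enzymes add up to the whole, so a lower Egln3 share raises the sum of the others. In TPM Egln1 itself had 216 ± 26.4 in placebo and 229 ± 59.0 with praliciguat (SD, n = 4). Egln2 took 22.5 ± 2.55% and 24.1 ± 4.72% (SD, n = 4).

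**Figure D4:**
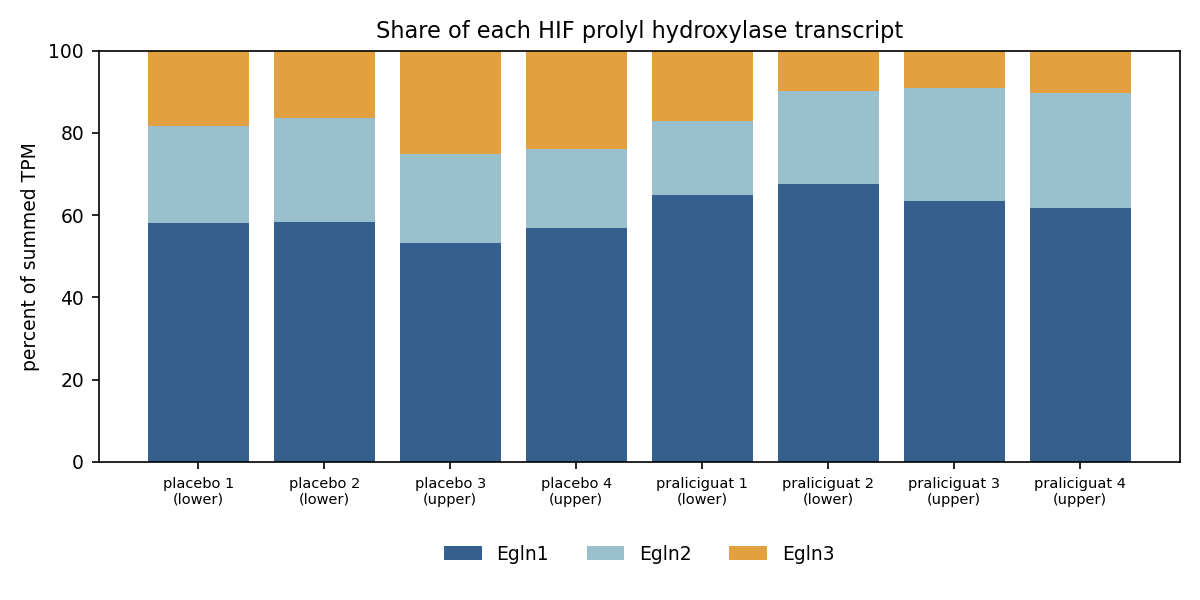
Stacked shares of Egln1, Egln2 and Egln3 in their summed TPM, in percent, for each of the 8 libraries with its run of title numbers. The Egln1 share lies between 53.3 and 58.3% in placebo and between 61.7 and 67.7% with praliciguat. The shares of a library add up to the whole, so they do not move independently.

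Hif1an, the asparagine hydroxylase, was at 139, 167, 150.03 and 218 CPM in placebo and at 193, 223, 139 and 161 CPM with praliciguat, with full overlap (0.09 ± 0.18 SE). Vhl, the substrate-binding part of the ligase, was at 6.15, 5.86, 9.57 and 5.88 CPM in placebo and at 6.75, 7.31, 11.5 and 12.4 CPM with praliciguat. Placebo replicate 3 alone overlapped the praliciguat range, and the log2 fold change was 0.47 ± 0.25 SE (edgeR adjusted p = 0.956). Of the 23 other regulators of HIF on the list of related genes, among them ligase subunits, coactivators and chaperones, 12 lay above 0 and 11 below, with 0 called by edgeR. After Arnt2 the lowest p belonged to Siah2 (-0.23 ± 0.11 SE), a ligase of the prolyl hydroxylases, and Hsp90aa1 (-0.25 ± 0.14 SE), a chaperone of HIF-1 alpha.

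Of the 5 targets that steer glucose and pyruvate, 4 had a fold change above 0 and 0 were called. Pfkfb3 and Pfkfb4 make fructose 2,6-bisphosphate, the activator of glycolysis. Pfkfb3 was at 119, 78.1, 80.9 and 151 CPM in placebo and at 100.4, 145, 109 and 262 CPM with praliciguat (0.52 ± 0.34 SE). The highest value, praliciguat replicate 4, carried much of this difference, which was 0.14 without that library. Pfkfb4 was at 35.9, 49.5, 29.7 and 35.2 CPM in placebo and at 55.3, 56.1, 34.3 and 40.8 CPM with praliciguat (0.31 ± 0.20 SE, or 0.47 without placebo replicate 2). It took 34.8 ± 9.60% of the summed TPM of this pair in placebo, against 32.7 ± 10.9% under praliciguat (SD, n = 4; two-sided exact permutation test, p = 0.8).

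Slc2a1, the basal glucose transporter GLUT1, was at 11.4, 10.9, 8.13 and 9.50 CPM in placebo and at 12.4, 9.95, 9.88 and 8.34 CPM with praliciguat (0.03 ± 0.16 SE). The groups lay over each other almost entirely. Slc2a3, the high-affinity transporter GLUT3, ranged from 4.22 to 7.87 CPM in placebo and from 3.66 to 17.8 CPM with praliciguat. The Slc2a1 share of this pair was 71.0 ± 4.06% and 67.8 ± 15.2% of TPM (SD, n = 4; two-sided exact permutation test, p = 0.8). Pdk1, the kinase that keeps pyruvate out of mitochondria, was at 77.8, 80.6, 97.0 and 109 CPM in placebo and at 95.8, 98.8, 63.0 and 65.3 CPM with praliciguat (-0.18 ± 0.18 SE). Here the praliciguat libraries of the upper run were the lowest of the 8. Leaving out 1 library moved its fold change between -0.29 (praliciguat replicate 2) and -0.0696 (praliciguat replicate 3). Among 17 further HIF targets of glycolysis that were tested, 13 lay above 0 (median 0.11) and 0 were called, with Slc16a3 at 0.28 ± 0.17, Gpi1 at 0.18 ± 0.11 and Hk2 at -0.21 ± 0.13 (SE) the 3 of lowest p.

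Of the 5 targets that act on mitochondria and energy balance, 4 had a fold change below 0 and 0 were called. Bnip3, which tags mitochondria for removal, was at 142, 140.3, 171 and 169 CPM in placebo and at 142, 124, 127 and 143 CPM with praliciguat (-0.22 ± 0.10 SE, edgeR adjusted p = 0.915). The 2 placebo libraries of the upper run were higher than the other 6 libraries, which lay close together. Its relative Bnip3l was at 45.8 ± 1.42 and 47.4 ± 2.83 CPM (SD, n = 4). Bnip3l took 13.2 ± 1.01% of the TPM of the pair in placebo, against 15.5 ± 1.56% under praliciguat (SD, n = 4; two-sided exact permutation test, p = 0.0857, or 0.257 adjusted for 6 shares). Fam162a, a mitochondrial protein induced by hypoxia, was at 44.8, 46.4, 37.7 and 39.5 CPM in placebo and at 41.8, 40.6, 36.5 and 38.8 CPM with praliciguat. Fam162a and Higd1a, a factor of the respiratory chain, had log2 fold changes of -0.09 ± 0.09 and -0.02 ± 0.07 (SE). For Fam162a it lay between -0.15 (without placebo replicate 3) and -0.0440 (without placebo replicate 2). Ak4, a mitochondrial adenylate kinase, scattered most within praliciguat, from 2.06 to 19.7 CPM, against 6.27 to 11.6 CPM in placebo.

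Among targets that restrain growth, Ddit4 was at 203, 249.6, 212 and 240.1 CPM in placebo and at 229, 238, 135 and 112 CPM with praliciguat (-0.34 ± 0.24 SE). The low values were the 2 praliciguat libraries of the upper run, and the 2 of the lower run lay inside the placebo range. Without praliciguat replicate 3 the difference was -0.23, and without praliciguat replicate 4 it was -0.17. Stc2, a secreted glycoprotein, was at 3.30, 2.71, 3.43 and 2.36 CPM in placebo and at 5.22, 2.88, 3.99 and 3.69 CPM with praliciguat (0.42 ± 0.23 SE, or 0.26 without praliciguat replicate 1). Ankrd37, an ankyrin repeat protein used as a hypoxia marker, was at 1.92, 2.98, 2.74 and 1.81 CPM in placebo and at 1.61, 1.24, 2.92 and 2.24 CPM with praliciguat (-0.24 ± 0.31 SE, between -0.48 without praliciguat replicate 3 and -0.0669 without praliciguat replicate 2). That gene is low, and its exons overlap Lrp2bp and Ufsp2 on the opposite strand. Ndrg1, a stress protein, Mxi1, an antagonist of MYC, and Bhlhe40 had log2 fold changes of -0.13, 0.00 and 0.13. Mxi1 turned below 0 under upper quartile scaling.

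The collagen prolyl 4-hydroxylases P4ha1 and P4ha2 use oxygen to stabilise collagen, and both had a fold change below 0. P4ha1 was at 40.5, 42.0, 63.5 and 56.3 CPM in placebo and at 33.7, 38.2, 45.3 and 36.0 CPM with praliciguat. Only praliciguat replicate 3 reached into the placebo range (log2 fold change -0.40 ± 0.16 SE, edgeR adjusted p = 0.781). That library also had the highest fibroblast markers, and their part in its P4ha1 level was not tested. P4ha2 was at 40.3, 34.1, 37.0 and 43.4 CPM in placebo and at 29.7, 35.6, 33.5 and 33.8 CPM with praliciguat (-0.22 ± 0.10 SE, edgeR adjusted p = 0.881). P4ha1 was lower within both runs of 2 against 2 libraries, by -0.20 and -0.56, without overlap in either. Of all genes, 7.87% kept a direction without overlap in both runs. P4ha2 was lower by -0.19 and -0.25, with overlap in the lower run. The P4ha1 share of the pair was 41.4 ± 5.30% and 38.6 ± 2.78% of TPM (SD, n = 4; two-sided exact permutation test, p = 0.429). Kdm3a and Kdm4b, oxygen-dependent histone demethylases, and Ero1l, an oxidase of the secretory pathway, had log2 fold changes of 0.03 ± 0.11, 0.09 ± 0.10 and 0.16 ± 0.11 (SE); that of Kdm4b was 0.0322 without placebo replicate 1.

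Mif, a secreted cytokine of inflammation, had the lowest p of the 34 genes. It was at 30.7, 30.5, 28.4 and 23.3 CPM in placebo and at 21.8, 21.5, 24.8 and 23.6 CPM with praliciguat. Placebo replicate 4 alone lay within the praliciguat range, and the log2 fold change was -0.30 ± 0.11 SE (edgeR adjusted p = 0.681). Mif has many pseudogene copies in the mouse genome, and their part in its count was not tested, which leaves the count uncertain. Tfrc, the receptor that imports iron, was at 175, 352, 414 and 281 CPM in placebo and at 415, 565, 431 and 245 CPM with praliciguat (0.44 ± 0.31 SE). Placebo replicate 1 was the lowest of the 8 libraries and praliciguat replicate 2 the highest, and with either one left out the difference was 0.25. Red blood cell and erythroid markers summed to 178 to 443 CPM in placebo and 163 to 422 CPM with praliciguat. Adm, the vessel-relaxing peptide adrenomedullin, was at 5.43, 3.80, 4.97 and 3.45 CPM in placebo and at 6.43, 2.72, 5.57 and 2.34 CPM with praliciguat. Car9 was at 1.87, 1.95, 1.30 and 1.05 CPM in placebo and at 1.96, 1.67, 1.49 and 1.38 CPM with praliciguat. For Adm and Car9 the groups overlapped fully, with log2 fold changes of -0.05 ± 0.34 and 0.07 ± 0.27 (SE).

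Further HIF targets of vessels and matrix, a list that includes Vegfa, lay mostly lower. The list was chosen with earlier results of these data known, so its counts are a description and not a test. Of 17 tested, 14 had a fold change below 0 (median -0.27), and 3 did not overlap between groups, all lower, against 2.54% of all genes in that direction. Those were Vegfa (427 ± 32.7 against 325 ± 32.8 CPM), Pgf, placental growth factor (4.65 ± 0.599 against 2.54 ± 0.850 CPM), and Ctgf, a matrix protein (67.9 ± 16.1 against 29.2 ± 16.6 CPM; SD, n = 4). edgeR called 0 of the 17 (adjusted p = 0.399, 0.515 and 0.584 for these 3), and DESeq2 called Vegfa lower. Marker lists leaned to a side as well, where 44.8% of all genes lay below 0. Below 0 lay 10 of 10 endothelial, 9 of 9 slow fibre (median -2.83) and 5 of 5 Schwann cell markers (median -0.65). Also below 0 were 7 of 8 smooth muscle and pericyte, 7 of 7 tested erythroid and 5 of 6 satellite cell markers. Above 0 lay 7 of 7 adipocyte (median 0.997), 6 of 6 tested macrophage, 6 of 7 fibroblast and 8 of 9 fast fibre markers. Praliciguat replicate 3 had 534 CPM of summed macrophage and leukocyte markers and 4885 CPM of fibroblast markers. The other praliciguat libraries had 47.8 to 106 and 661 to 1653 CPM. Within the lower run of title numbers, every tested macrophage marker and every fibroblast marker had a difference below 0. Of the slow fibre markers 8 were lower without overlap, against 2.54% of all genes. DESeq2 called 8 of them lower, where it called 0.958% of all genes, while edgeR and limma-voom called 0. The Schwann cell, smooth muscle, adipocyte, macrophage, fibroblast, erythroid and fast fibre lists had 0 without overlap. Summed adipocyte markers were at 517 to 1439 CPM in placebo and 789 to 2039 CPM with praliciguat. The part of these lists in the values was not tested. Of 28 tested targets with other roles, 18 lay above 0 and 10 below, with 0 called by edgeR; Wsb1 (-0.45 ± 0.13 SE), a ubiquitin ligase subunit, and Dusp1 (0.46 ± 0.13 SE), a phosphatase of MAP kinases, did not overlap between groups, and Stc1 had -0.51 ± 0.26.

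Across all the other pathway genes, 5 of 85 tested lay lower without overlap, against 2.54% of all genes, and 1 lay higher, against 1.32%. These genes too were chosen with earlier results of the data known, so the counts describe the lists only.

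Differences were also taken within each run of title numbers. In Epas1, Egln1, Slc2a3 and Pdk1 both praliciguat libraries of the lower run lay above both placebo libraries of that run, and both of the upper run lay below theirs. This order held in 4 of 34 members and in 7.75% of all genes. The opposite order was seen in 0 members and 5.56% of all genes. Within the lower run Epas1 differed by 0.29, Egln1 by 0.54, Slc2a3 by 0.88 and Pdk1 by 0.30 (differences of mean log2(CPM + 0.5)). Within the upper run the differences were -0.38, -0.34, -0.54 and -0.68. With 2 libraries against 2, groups did not overlap in 16 members within the lower run, against 53% of all genes, and in 14 within the upper run, against 40.1%. Vhl and P4ha1 kept their direction without overlap in both runs, Vhl higher and P4ha1 lower, where 7.87% of all genes kept theirs.

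An interaction of drug and run, added after the data were seen, was tested for each gene with edgeR. It called 0 of 34 members, and 2 genes in all (0.0147%). At an unadjusted p under 0.05 there were 9 members, against 16.3% of all genes. The smallest member values were for Pdk1 (interaction -0.98 ± 0.15 SE, adjusted p = 0.124), Egln3 (-1.85 ± 0.37, 0.165) and Egln1 (-0.88 ± 0.19, 0.166). In the lower run alone, with 2 libraries a group, edgeR called 1 of 34 members, where it called 2.68% of all genes. That member was Mif (log2 fold change -0.51 ± 0.11 SE, adjusted p = 0.0488). In the upper run alone it called 0 members and 0% of all genes. The runs hold 2 libraries of each group, and whether they differ in animals, handling or sequencing was not tested.

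**Figure D5:**
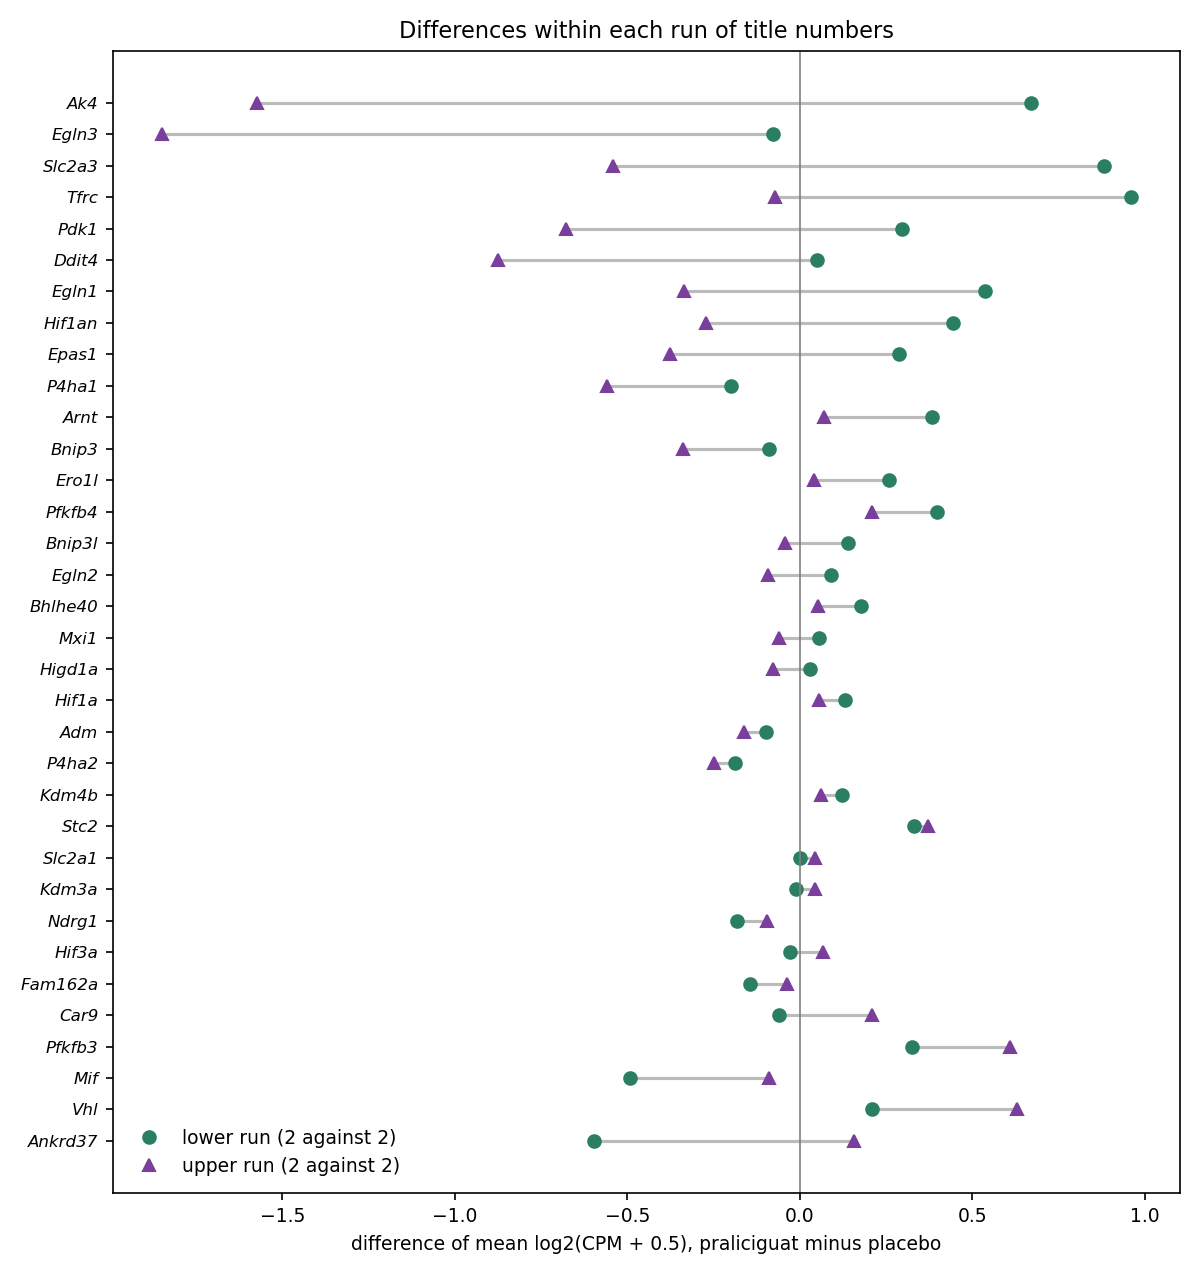
Difference between praliciguat and placebo within each run of title numbers, on the log2(CPM + 0.5) scale, for the 34 genes ordered by how far the runs differ. Egln3 stands at -0.08 in the lower and -1.85 in the upper run, and Egln1 at 0.54 and -0.34.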

How the data were processed

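RNA sequencing libraries of ischemic tibialis anterior muscle, 4 placebo and 4 praliciguat, were grouped by their labels and numbered in accession order. Tri Reagent extraction and the KAPA stranded kit are named per the labels; per the submitters' processing notes FastQC, Trimmomatic, STAR 2.5.3a, RSEM 1.2.28 and mm10 were used. Whether counting used strand is unstated in these sources, which leaves genes with antisense partners uncertain. The authors deposited expected counts (RSEM's estimated reads per gene), TPM and a mean transcript length in bases, per the file headers; deposited FPKM values were not used here. The expected counts of the 34 genes were within 0.001 of a whole number in every library.

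After rounding, expected counts of all genes entered edgeR 4.0.16 under R 4.3.3 (TMM scaling, the filterByExpr filter, robust quasi-likelihood F test, Benjamini-Hochberg over 13569 genes, threshold 0.05). Errors of fold changes were derived from the F statistic. Shares came from the deposited TPM and were compared by exact two-sided permutation over 70 groupings (scipy 1.17.1). Libraries within a group differed by more than sampling noise (chi-square per degree of freedom 21.9 to 136). Coordinates and promoter windows are those of RefSeq on GRCm38.p6, and overlapping exons those of GENCODE M21. Genes given with a value per library were the subunits and sensors, the 2 of lowest p in each other role, and Slc2a1, Pdk1, Bnip3, Ankrd37, Adm and Car9; of other pathway lists the 3 of lowest p were named, and of promoters those of lowest p that held a core. The members and lists were chosen with earlier results of these data known. Alternatives were other scalings and filters, DESeq2 1.42.0, limma-voom (limma 3.58.1), log2(TPM + 1) and log2(TPM + 0.1), no robust dispersion, the run as a block, an adjusted p under 0.1 and each library left out. Fits within a run, without praliciguat replicates 3 and 4, and the interaction were added after seeing the data. Protein sequences are not used here.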

Additional observations from a re-analysis of the deposited data

Results flagged for a closer look

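Of 80 groups of 4 libraries examined, 4 held a library far from the other 3 for its group's range; chance marks about 1 in 20. Vhl was at 9.57 CPM in placebo replicate 3, against 5.86 to 6.15 CPM in the other placebo libraries. Ndrg1 was at 64.5 CPM in placebo replicate 1, against 40.7 to 41.9 CPM in the rest of that group. Bhlhe40 was at 207 CPM in praliciguat replicate 4, and the other praliciguat libraries lay between 88.2 and 105 CPM. The Egln3 share of prolyl hydroxylase TPM was 17.0% in praliciguat replicate 1, where the others had 9.07 to 10.2%.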

How the results depend on the processing

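The count of members called stayed at 0 under every other scaling, filter, tool, block and left-out library tried with edgeR, DESeq2 and limma, with a smallest adjusted p of 0.314; in the lower run alone, added after seeing the data, it was 1. All genes called numbered 0 with edgeR, 130 with DESeq2, 3 with the run as a block, 11 at an adjusted p under 0.1, 364 in the lower run alone, 85 without praliciguat replicates 3 and 4 together, and 0 to 5 with each library left out (5 without placebo replicate 3). Members without overlap numbered 0, against 3.86% of all genes. Within the lower and upper run they numbered 16 and 14, against 53% and 40.1% of all genes. There was 1 under upper quartile scaling (Ero1l), and there were 0 to 2 with a library left out. For these last settings no share of all genes was taken, so the counts cannot be read against one. Of 612 member values over 18 alternatives 52 turned direction, 16 of them with all libraries kept, and 19 of 34 members never turned. The turned values, as log2 fold changes, follow, and the cause was not tested. Egln2 was -0.0046 (upper quartile), -0.0011 (filter of 1 CPM), -0.0413 and -0.0417 (TPM with pseudocount 1 and 0.1) and -0.0025 (block). Mxi1 was -0.0052, -0.0015, -0.0447, -0.0455 and -0.000196 in the same order, and -0.0016 with limma-voom. With TPM and either pseudocount Slc2a1 was -0.0142 and -0.0164 and Kdm3a -0.0190 and -0.0221, and Hif3a was -0.0158 with 0.1. Ranges with each library left out were -0.0488 to 0.21 for Hif1a, -0.14 to 0.0937 for Epas1, -0.24 to 0.32 for Hif3a, -0.0767 to 0.0535 for Egln2, -0.0365 to 0.24 for Hif1an, -0.0838 to 0.11 for Slc2a1, -0.16 to 0.70 for Slc2a3, -0.0382 to 0.0129 for Higd1a, -1.02 to 0.24 for Ak4, -0.24 to 0.0644 for Ndrg1, -0.0534 to 0.0547 for Mxi1, -0.23 to 0.39 for Bhlhe40, -0.0541 to 0.0832 for Kdm3a, -0.31 to 0.16 for Adm and -0.0736 to 0.21 for Car9. Differences in share, in percentage points, were -9.38 for Egln3 (-3.97 in the lower and -14.8 in the upper run, -11.2 to -7.99 with a library left out), -0.981 for Epas1 (0.772 in the lower run, -2.09 to 0.338), -2.07 for Pfkfb4 (1.23 in the lower run, -6.02 to 2.66) and -3.20 for Slc2a1 (8.51 in the upper run, -7.15 to 3.76). The labels give no replicate numbers that pair single libraries across the groups; the run was the one block fitted. Car9, Ankrd37 and Stc2 were low, at 1 to 6 CPM, and the part of depth in their spread was not tested.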
